A study of Mus musculus with 8 samples.

Results

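The Egr, Ier, Btg and Zfp36 genes studied here are 10 immediate-early genes, namely Egr1, Egr2, Egr3, Ier2, Ier3, Ier5, Btg1, Btg2, Zfp36 and Zfp36l1. They were looked up by Entrez Gene ID among the 24594 genes of the deposited count table, and all 10 were found. The list was chosen by looking at the difference between luminal progenitors (LPs) and mature luminal cells, because Ier2 and Egr1 differed in the opposite direction to other immediate-early genes. The differences between the fractions given below for these 10 genes are therefore a description, with no test. RNA was sequenced from 4 LP and 4 mature libraries. All 8 came from the mammary glands of untreated, wild-type, virgin adult C57BL/6J females, with no transgene or deleted allele in either fraction. The luminal cells were freshly isolated, depleted of blood and endothelial cells, and sorted by flow cytometry, for which the labels name EpCAM, CD49f, c-Kit and CD14 and the study's text c-Kit. Each fraction is thus a gated population, which may hold more than 1 cell type. The study's methods describe hours of enzyme digestion of the glands, then trypsin and dispase, before staining and sorting. The part of this handling in the levels below was not tested. The LP and the mature library of each replicate number carry the same number at the start of their library names, which links them to a common source. What that number stands for (an animal, a pool or a preparation) is not stated, so the spread between libraries may be partly technical. Where blocking on that number gives another call, it is given beside the result.

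Immediate-early genes are transcribed within minutes of a stimulus such as serum, growth factors or stress, without new protein synthesis, because the factors that switch them on are already present in the cell. Serum response factor (SRF), with its partners of the ternary complex factor and MRTF families, binds a DNA motif called the CArG box in many of their promoters, and CREB binds the cyclic AMP response element. Their mRNAs are usually short-lived, and AU-rich elements in the 3′ untranslated region (UTR) are 1 mark of such mRNAs. The list also holds products that act on mRNA decay, since BTG and ZFP36 proteins both bring the CCR4-NOT deadenylase to mRNAs.

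Library totals ran from 4410049 to 7791593 counts on genes, and CPM below means counts scaled to a common library size with TMM factors. The defining markers, when summed, matched the labels. The summed level of Kit, Elf5, Cd14 and Aldh1a3 was 13574 to 20040 CPM in the LP libraries and 244 to 966 CPM in the mature ones. That of Pgr, Esr1, Prlr and Foxa1 was 304 to 991 and 4190 to 5944 CPM. Most of these sums was Cd14 in LPs (mean 14087 CPM) and Prlr in mature cells (mean 4546 CPM). Kit and Cd14 are sort markers in the labels, so their match is in part set by the sort. Aldh1a3 had an adjusted p of 0.0512 in edgeR, and Esr1 overlapped between the fractions. Krt8, Krt18 and Epcam were high in every library. Among 6 leukocyte markers, the sum reached 53.7 CPM at most and was nearly all Cd68, while Cd3e was at 0 in all libraries. The endothelial marker Kdr was also at 0 in all libraries, but Pecam1, another, was at 0.98 to 8.19 CPM. The erythroid marker Hba-a1 reached 75.9 CPM in LP replicate 4 and 62.7 CPM in mature replicate 4. In the other libraries it was at 26.9 CPM or less. Mature replicate 3 stood apart, with the highest level of Kit, Elf5 and Cd14 and the highest sum of basal markers among the mature libraries. Aldh1a3 and the basal marker Trp63 were higher in mature replicate 4. Results that rest on mature replicate 3 are given with and without it. In bulk RNA, fewer cells expressing a gene and less of its RNA per cell cannot be told apart.

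Of all 12816 genes tested between the fractions, 24.7% passed an adjusted p-value of 0.05 in edgeR's quasi-likelihood test with Benjamini-Hochberg adjustment, 10.9% higher and 13.8% lower in LPs. The 4 LP libraries did not overlap the 4 mature libraries in 29.5% of the genes tested. All 10 genes of the list passed the filter on low counts. Against that background 3 of the 10 were called, Egr3 and Ier2 higher and Btg2 lower in LPs, and Egr3 and Ier2 were the 2 whose libraries did not overlap. Their median log2 fold change was 0.21, beside -0.00 for all tested genes. These counts come from the contrast by which the list was chosen, and nothing is read from them.

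**Figure D1:**
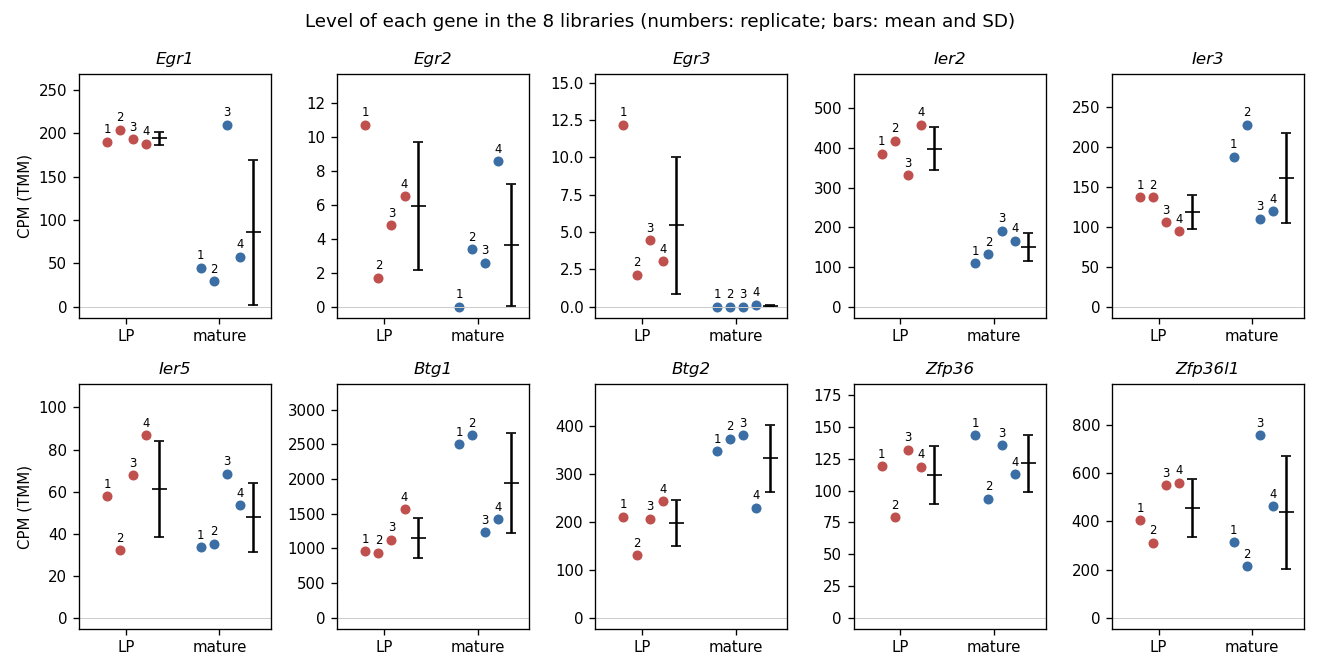
Level of each of the 10 genes in CPM (vertical axis, starting at 0) in the LP (red) and mature (blue) libraries. Points are libraries numbered by replicate, and black bars give the mean and SD of 4 libraries. Ier2 and Egr3 do not overlap between fractions, whereas Egr1 lies at 210 CPM in mature replicate 3, above all 4 LP libraries.

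The EGR proteins are zinc finger transcription factors that bind GC-rich sites. Egr1 lies on chromosome 18, has 2 exons and is the best-known member, induced by mitogens in most cell types. Egr1 stood at 191, 204, 194 and 188 CPM in LP replicates 1 to 4, and at 45.3, 29.9, 210.2 and 58.0 CPM in mature replicates 1 to 4. The LP libraries were nearly level, and 3 of the 4 mature libraries lay far below them while mature replicate 3 lay above all of them. The mean was 194 ± 7.17 CPM in LPs and 85.9 ± 83.7 CPM in mature cells (SD, n = 4 each). The log2 fold change of LP over mature was 1.17 (SE 0.50), and 2.15 without mature replicate 3. Egr1 was not called with all libraries and was called without that one. With the replicate number as a block it was called with all 8 libraries, at 1.61, and it was higher in the LP library in 3 of the 4 pairs of the same number.

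Egr1 was among the most even genes of the LP libraries. Its SD in log2 CPM was 0.05 in LPs, at percentile 0.78 of all tested genes, and 1.21 in mature cells, at percentile 87.7. In mature replicate 3 Egr1 was at 108% of the LP mean. In the same library Kit, the receptor used for the sort, was at 27.2% of its LP mean and Elf5, a transcription factor of progenitors, at 51.6%. Aldh1a3 was at 55.6% and Cd14 at 2.28%. Aldh1a3 was higher still in mature replicate 4, at 378 CPM against 354 CPM in mature replicate 3. The 4 progenitor markers together reached 966 CPM there and 244 to 715 CPM in the other 3 mature libraries, and 7 basal markers reached 74.1 CPM there, 13.1 to 36.9 CPM in the other 3 and 17.5 to 47.0 CPM in LPs. The part of these cells in the Egr1 level was not tested.

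Egr2, whose protein is needed for myelination by Schwann cells, lies at chr10:67534469-67542188 on the plus strand (GRCm38, the build also called mm10). The table of RefSeq promoters holds windows for 7 of the 10 genes, from 250 bases before to 50 bases after an annotated start site. It holds none for Egr1, Egr3 and Ier2, so no promoter motif was looked for in them. Egr2 has several windows. The 200 bases before 1 of its start sites, chr10:67537669-67537868 on the plus strand, are shown because they hold a CArG box 72 bases before the start, and TGACG, a shorter form of the cyclic AMP response element, on each strand. Capitals mark these matches.
Egr2 promoter: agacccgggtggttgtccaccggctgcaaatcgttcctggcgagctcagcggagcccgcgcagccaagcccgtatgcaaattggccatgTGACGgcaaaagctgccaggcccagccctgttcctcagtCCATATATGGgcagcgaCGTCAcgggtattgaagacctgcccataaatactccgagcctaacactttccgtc
A CArG box was looked for as CC, 6 bases of A or T, and GG on both strands, and 1.81% of 27025 genes with a promoter window held one. TGACG, read on both strands, was in 23.05% of these genes. Such a match is a description of the letters and not evidence of binding. Egr2 itself was rare, at 10.7, 1.73, 4.81 and 6.52 CPM in LP replicates 1 to 4 and at 0, 3.41, 2.60 and 8.59 CPM in mature replicates 1 to 4. The fractions overlapped, and with 0 to 74 counts per library its log2 fold change of 0.70 (SE 0.97) ranged from 0.26 to 1.62 as single libraries were left out.

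Egr3, a close relative of Egr1 and Egr2, lies at chr14:70077317-70082613 on the plus strand and was the one member close to absent from a fraction. It had 84, 15, 27 and 22 counts in LP replicates 1 to 4, and 0, 0, 0 and 1 counts in mature replicates 1 to 4. In CPM, the LP libraries held 12.2, 2.16, 4.48 and 3.05, and all 4 were above every mature library. Egr3 passed the filter on low counts only through these LP libraries, so nothing is read from its call. A count of 0 allows up to 3 counts, which is 0.421, 0.786 and 0.431 CPM in mature replicates 1 to 3. Over the summed libraries, 148 counts in LPs against 1 in mature cells gave a ratio of 134. Its exact 95% interval of 23.7 to 5326 covers counting error only and not the spread between libraries, so nothing is read from it. LP replicate 1 supplied most of the 148 LP counts and was also the LP library highest in Egr2.

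The IER genes are named for their rapid induction. Ier2, a nuclear protein encoded by a single exon at chr8:84661331-84662852 on the minus strand, was higher in each LP library than in any mature one. It stood at 386, 418, 331 and 459 CPM in LP replicates 1 to 4, and at 110.5, 133, 192 and 166.5 CPM in mature replicates 1 to 4. The lowest LP library was thus 1.72 times the highest mature library, which was again mature replicate 3. Means were 399 ± 54.0 and 151 ± 36.1 CPM (SD, n = 4), with a log2 fold change of 1.40 (SE 0.20) that stayed between 1.30 and 1.58 in all 13 alternative fits.

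Ier3, whose product acts in cell survival under stress, lies at chr17:35821713-35822911 on the plus strand. It stood at 137.1, 136.9, 105.9 and 94.2 CPM in LP replicates 1 to 4 and at 188, 228, 110.3 and 119.8 CPM in mature replicates 1 to 4. Mature replicates 1 and 2 lay above all other libraries, and mature replicates 3 and 4 within the LP range. Although the fractions overlapped, Ier3 was lower in the LP library in 4 of 4 pairs of the same number. The log2 fold change was -0.44 (SE 0.25), so Ier3 pointed the other way from Ier2. Ier5, whose product helps to activate the heat shock factor HSF1, lies in a single exon at chr1:155096367-155099636 on the minus strand. It had 57.9, 32.1, 67.7 and 86.7 CPM in LPs and 33.6, 35.2, 68.4 and 53.6 CPM in mature cells. The fractions overlapped almost fully, with a log2 fold change of 0.35 (SE 0.32), or 0.61 without mature replicate 3.

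Per kilobase of exon, Ier2 made up 67.8 ± 3.90% of the summed level of Ier2, Ier3 and Ier5 in LPs and 39.3 ± 11.8% in mature cells (SD, n = 4). Among the mature libraries this share was 29.2% in replicates 1 and 2, 51.6% in replicate 3 and 47.2% in replicate 4, all below the 64.6% of the lowest LP library. Such a share carries the Ier2 difference by which the genes were picked.

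BTG proteins restrain proliferation and bind the deadenylase subunits of CCR4-NOT. Btg1 lies at chr10:96617001-96622813 on the plus strand and Btg2 at chr1:134074865-134079155 on the minus strand. The 200 bases before each start site, chr10:96616801-96617000 on the plus strand and chr1:134079156-134079355 on the minus strand, are shown because the elements found in them differ. In Btg1 capitals mark TATAAA and CGTCA, which is TGACG on the opposite strand. In Btg2 they mark the full cyclic AMP response element TGACGTCA, which contains TGACG.
Btg1 promoter: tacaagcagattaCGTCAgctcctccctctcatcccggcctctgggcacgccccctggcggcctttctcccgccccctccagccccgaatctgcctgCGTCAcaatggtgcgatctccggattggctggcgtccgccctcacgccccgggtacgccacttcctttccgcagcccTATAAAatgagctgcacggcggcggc
Btg2 promoter: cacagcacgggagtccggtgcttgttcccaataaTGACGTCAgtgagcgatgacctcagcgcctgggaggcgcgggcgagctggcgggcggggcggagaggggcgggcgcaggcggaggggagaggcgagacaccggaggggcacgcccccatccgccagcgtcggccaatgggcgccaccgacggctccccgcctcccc
TGACGTCA lay 166 bases before the Btg2 start and in 2.03% of genes with a window. TATAAA, searched on both strands, lay 26 bases before the Btg1 start, and 15.67% of genes held it.

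Btg1 was at 958, 935, 1126 and 1562 CPM in LP replicates 1 to 4, and at 2498, 2628, 1230.0 and 1420.1 CPM in mature replicates 1 to 4. Mature replicates 1 and 2 lay above every LP library, whereas mature replicates 3 and 4 lay within the LP range. The log2 fold change was -0.76 (SE 0.29), and Btg1 was called only without mature replicate 3, at -0.90, or by DESeq2. Mature replicates 1 and 2 were also the libraries with the highest sum of 4 fibroblast markers, 133 and 171 CPM against 22.4 and 21.7 CPM in mature replicates 3 and 4 and 7.35 to 37.6 CPM in LPs. That sum was nearly all Dcn, which encodes the proteoglycan decorin, while Col1a1 was at 0 in both. Pdgfra, another fibroblast marker, was at 0.56 CPM in mature replicate 1, below all LP libraries, which held 4.81 CPM or more. In mature replicate 2 it was at 16.3 CPM, the highest of all libraries. The part of fibroblasts in the Btg1 level was not tested. Of the 50-base stretches of Btg1 transcripts, 2.49% also occur in the processed pseudogene Gm14519, and how reads matching both were counted is not stated.

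Btg2, a p53 target as well as an immediate-early gene, was at 210.1, 130.0, 206 and 242 CPM in LPs and at 346, 373, 380 and 229 CPM in mature replicates 1 to 4. Mature replicate 4 lay between the 2 highest LP libraries, and the other 3 mature libraries lay above all LPs. The log2 fold change was -0.75 (SE 0.23). Btg2 was called lower in LPs with all libraries, but not when any 1 of LP replicates 1, 2 and 3 or mature replicates 1, 2 and 3 was left out, when it ranged from -0.87 to -0.59 over the 8 fits with a library left out. With the replicate number as a block it was not called, at -0.76, and it was lower in the LP library in 3 of 4 pairs. Scaling by library totals alone also ended the call, at -0.56, and under that scaling the median of all genes moved to 0.19. With it, 61.3% of all calls were higher in LPs instead of 44.1%.

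ZFP36 proteins bind AU-rich elements through tandem CCCH zinc fingers and start the decay of the mRNAs that hold them. Zfp36, which encodes tristetraprolin, lies at chr7:28376784-28379228 on the minus strand. The 200 bases before its start, chr7:28379229-28379428 on the minus strand, are shown because they hold a CArG box 58 bases before the start and a GC-rich EGR site 105 bases before it, both in capitals.
Zfp36 promoter: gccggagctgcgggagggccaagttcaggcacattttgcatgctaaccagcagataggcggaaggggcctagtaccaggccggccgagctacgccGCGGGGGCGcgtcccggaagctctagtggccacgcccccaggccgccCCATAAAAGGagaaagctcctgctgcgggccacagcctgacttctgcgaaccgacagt
The EGR site was searched as GCGGGGGCG or GCGTGGGCG on both strands, and 3.93% of genes with a window held one. Of the 7 genes of the list with a window, Egr2 and Zfp36 held an exact CArG box, and Ier3 and Btg2 as well when 1 mismatch was allowed, which 23.75% of all genes then met.

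Zfp36 was at 119, 79.1, 132 and 119 CPM in LPs and at 143, 93.5, 136 and 113 CPM in mature replicates 1 to 4. The libraries overlapped, with a log2 fold change of -0.11 (SE 0.20) whose sign turned in 2 of 13 alternative fits, to 0.07 with library totals alone. Zfp36l1, which lies at chr12:80107760-80113013 on the minus strand, was at 406, 311, 551.5 and 562 CPM in LPs and at 315, 214, 758 and 463 CPM in mature replicates 1 to 4. Mature libraries held both its lowest and its highest level, and the highest was mature replicate 3. The log2 fold change was 0.06 (SE 0.35), negative in 4 of 13 alternative fits and 0.49 without mature replicate 3. Of the 50-base stretches of Zfp36l1 transcripts, 54.4% recur in other annotated genes, mostly Gm26669, which overlaps it on the opposite strand, and the rest in the pseudogene Zfp36l1-ps. Neither is among the counted genes, and since the strand setting of the counting is not stated, reads of Gm26669 cannot be told from those of Zfp36l1. Zfp36 overlaps Gm44710 on the opposite strand in the same way, and 4.21% of its stretches recur elsewhere.

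The mRNAs of these genes also differ in their own AU-rich elements. The core TATTTAT, which ZFP36 proteins are known to bind in RNA, was counted in the longest annotated 3′ UTR of each gene. Of the 10 genes, 4 held it, beside 27.7% of 20937 genes with a 3′ UTR. The first site of each is shown with its flanks, in the sense of the mRNA and with the core in capitals. The Ier3 site is at chr17:35822481-35822509 on the plus strand, and those of Zfp36 at chr7:28376966-28376994, Zfp36l1 at chr12:80108422-80108450 and Btg2 at chr1:134077249-134077277 are on the minus strand.
Ier3: tgtctaattaaTATTTATgTATTTATgta
Zfp36: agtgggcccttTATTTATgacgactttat
Zfp36l1: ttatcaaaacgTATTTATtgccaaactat
Btg2: aaatgaagagcTATTTATacatgtttttt
Ier3 held 4 matches in 613 bases, of which the first 2 follow each other with 1 base between them. Among 1101 UTRs within 10% of that length, 16.4% held any match and 0.54% held as many. Zfp36 and Zfp36l1 each held 3, in 774 and 1835 bases, as many as 1.43% and 4.67% of UTRs of similar length. Btg2 held 1 in 2199 bases. The 6 others held no TATTTAT, although Egr3 and Btg1 have 3′ UTRs of 2645 and 4166 bases, lengths at which 49.4% and 62.4% of genes hold one. The shorter AU-rich motif ATTTA occurred 11 times in Btg1, 7 in Egr3, 3 in Egr2, 2 each in Egr1 and Ier5, and 0 in Ier2. It occurred 9 times in Zfp36l1, 5 each in Ier3 and Btg2, and 3 in Zfp36. Its share among UTRs of similar length was not computed.

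Relatives outside the list were taken as background. Of 5 tested relatives of the IER, BTG and ZFP36 families, 2 rose in LPs and none fell, beside 10.9% and 13.8% of all tested genes. Zfp36l2, the third ZFP36 gene expressed here, rose by 1.18 on the log2 scale (SE 0.25, adjusted p = 0.00742 in edgeR), from 27.4 ± 7.74 CPM in mature cells to 62.0 ± 14.95 CPM in LPs (SD, n = 4). Tob2, a BTG family antiproliferative gene, rose by 0.82 (SE 0.21, adjusted p = 0.0162). Tob1 had a log2 fold change of -0.59 (SE 0.20, adjusted p = 0.0524 in edgeR), with all 4 LP libraries below the mature ones. It was called lower with the replicate block (adjusted p = 0.0338 in edgeR), by DESeq2 (adjusted p = 0.0362) and without mature replicate 1 (adjusted p = 0.0405 in edgeR). Btg3 had a log2 fold change of -0.20 (SE 0.20) and Ier5l, chosen after its values were seen, one of 0.64 (SE 0.52). Egr4 and Btg4 did not pass the filter on low counts.

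Among 8 genes of SRF, its partners and the NAB corepressors that EGR proteins bind, 1 passed the test, beside 24.7% of all tested genes. Mrtfb, a coactivator of SRF, rose by 1.19 on the log2 scale in LPs (SE 0.17, adjusted p = 0.000913 in edgeR), from 78.0 ± 7.67 to 178 ± 30.9 CPM (SD, n = 4). Srf itself was low, at 3.57 ± 2.93 CPM in LPs and 7.91 ± 2.25 CPM in mature cells, with a log2 fold change of -1.15 (SE 0.60, adjusted p = 0.188 in edgeR). Without LP replicate 3, the LP library highest in Srf, it was called lower in LPs, at -1.86 (adjusted p = 0.0446 in edgeR). Nab1 had a log2 fold change of -0.06 (SE 0.33) and Nab2 one of 0.28 (SE 0.32).

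Of 37 other immediate-early genes, 33 were tested, 14 of which fell and 2 of which rose in LPs, beside 13.8% and 10.9% of all genes. In either direction 16 were called, 18 with the replicate number as a block, and 13 to 16 with 1 library left out. The median log2 fold change of the 33 was -0.66, or -0.48 with library totals alone. That direction is part of why the 10 genes were picked, so it is not independent evidence. The values of these other immediate-early genes are therefore a description too, and no p-value is given for them. Atf3, a stress-induced transcription factor, fell by 3.12 on the log2 scale (SE 0.43). Gadd45b, a stress signalling gene, fell by 3.09 (SE 0.36). Ifrd1, a transcriptional coregulator, fell by 3.03 (SE 0.25), and Plk2, a polo-like kinase, fell by 2.76 (SE 0.37). Nr4a1, an orphan nuclear receptor, fell by 2.43 (SE 0.47), and by a smaller amount without mature replicate 3, at -1.76.

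Fos and Jun encode subunits of the AP-1 transcription factor, and both were lower in each LP library than in any mature one, the opposite of Ier2. Fos was at 136, 147, 122 and 158 CPM in LP replicates 1 to 4 and at 314, 300.5, 479 and 201 CPM in mature replicates 1 to 4, with no overlap. Jun was at 231, 174, 347 and 230.2 CPM in LPs and at 1326, 1077, 1143 and 502 CPM in mature cells, again with no overlap. In LPs Fos fell by 1.2 on the log2 scale (SE 0.24) and Jun fell by 2.04 (SE 0.31). Dusp1, a MAP kinase phosphatase, fell by 1.57 (SE 0.29). Junb overlapped between the fractions, at -0.55 (SE 0.21), and was not called with all libraries. It was called lower in LPs without mature replicate 3, at -0.62. Fosb, at 3.32 CPM or less in every library, was not tested. Mature replicate 3, the highest mature library in Egr1 and Ier2, was also the highest in Fos. It was the highest in Nr4a1 as well, at 155 CPM against 25.2 to 66.5 CPM in the other mature libraries. However, it was the lowest mature library in Junb, Gadd45b, Ifrd1 and Plk2, and lay between the others in Jun, Atf3 and Dusp1.

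Outside the list, 2 of the 33 tested immediate-early genes rose in LPs, beside 10.9% of all genes. Arc, best known as a synaptic gene, was at 3.64 ± 1.62 CPM in LPs against 0.21 ± 0.27 CPM in mature cells (SD, n = 4). It passed the filter on low counts only through the LP libraries, so nothing is read from its call. Trib1, a pseudokinase gene named as the other of the 2 after its values were seen, rose by 0.81 (SE 0.18).

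**Figure D2:**
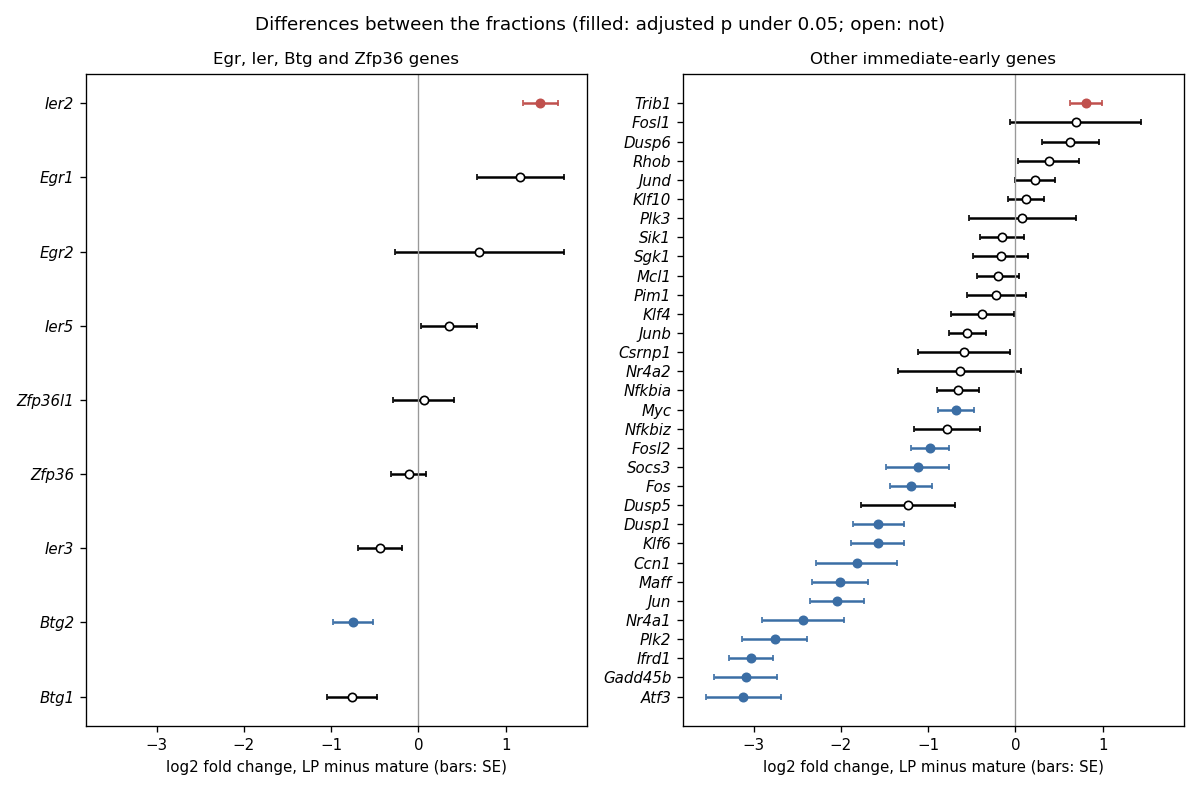
Log2 fold change of LP over mature (horizontal axis) with its SE, for the genes of the list (left) and the other tested immediate-early genes (right). Filled points passed an adjusted p of 0.05, red higher and blue lower in LPs. Egr3 and Arc are not drawn, since the mature libraries hold few counts of them. Ier2 lies at 1.40 and Egr1 at 1.17, whereas Fos lies at -1.2 and Jun at -2.04.

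Genes of the machinery that BTG and ZFP36 proteins act through were counted beside the 24.7% of all tested genes that were called. With lists this short, nothing is read from their counts. None of 11 tested CCR4-NOT genes passed the test in edgeR, with 1 at an unadjusted p under 0.05 and 0 called by DESeq2, although 1 was called with library totals alone and 1 without LP replicate 3. Their median log2 fold change was 0.15. Of 5 regulators of AU-rich mRNAs, Mapkapk2, a kinase that phosphorylates ZFP36, fell by 0.79 on the log2 scale in LPs (SE 0.20, adjusted p = 0.0155 in edgeR), a call lost with library totals alone and without LP replicate 1. Of 6 tested mRNAs known to carry AU-rich elements, Vegfa, a growth factor for blood vessels, fell by 2.52 (SE 0.47, adjusted p = 0.00371 in edgeR), and the list's median was -0.13.

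Within a fraction, the 10 genes did not vary as a block. In both fractions, libraries 1 and 2 lay below libraries 3 and 4 in Zfp36l1 and in Ier5, and above them in Ier3. Btg1 was lower in libraries 1 and 2 than in 3 and 4 among LPs, and higher in them among mature cells. LP replicate 2 was the lowest LP library for 7 of the 10 genes, all but Egr1, Ier2 and Ier3. Mature replicate 3 was the highest mature library for 5, namely Egr1, Ier2, Ier5, Btg2 and Zfp36l1, and the lowest for Ier3 and Btg1. The library names link the LP and mature libraries of the same number, but do not say what they have in common.

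**Figure D3:**
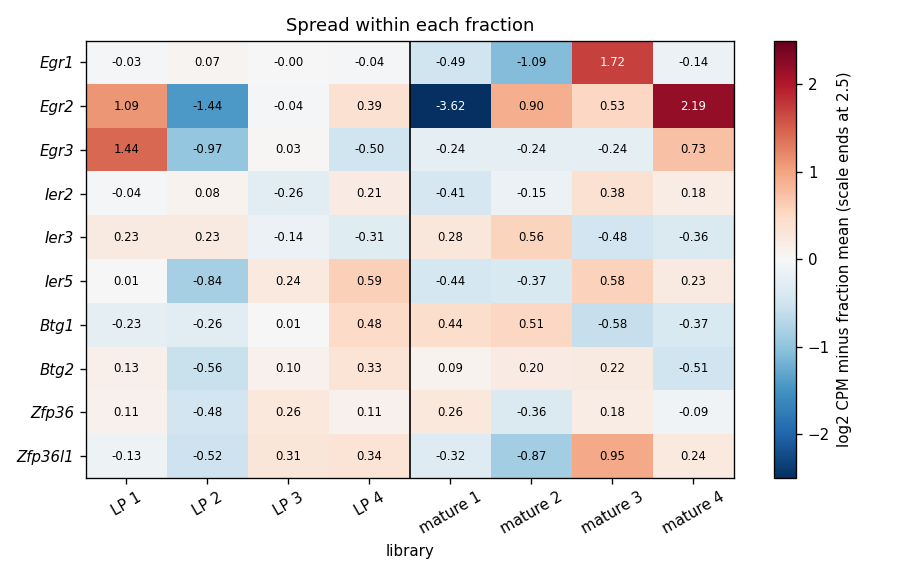
Log2 CPM of each gene (rows) minus the mean of its fraction, in the 8 libraries (columns, LP to the left of the black line). Red is above and blue below the mean, and the colour scale ends at 2.5. Egr1 varies from -0.04 to 0.07 among LPs and from -1.09 to 1.72 among mature libraries.

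Genes with a like pattern were sought among 9497 genes by the correlation of log2 CPM, less the fraction means, over the 8 libraries. The genes closest to Egr1 were BC006965 (Pearson 0.985, Spearman 0.762), C130074G19Rik (0.98 and 0.952) and Anpep (0.978 and 0.81). BC006965 was at 104, 119, 109 and 102 CPM in LPs and at 16.0, 10.2, 106.5 and 31.5 CPM in mature replicates 1 to 4, so it too was level in LPs and reached the LP level in mature replicate 3. Anpep, which encodes a membrane aminopeptidase, was at 90.2 CPM in that library, below all LPs. Closest to Ier2 were Nqo1 (Pearson 0.984, Spearman 0.976), Car13 (0.976 and 0.929) and Rplp2 (0.974 and 1). All 8 points share their libraries' depth and scaling, and the Pearson values for Egr1 rest largely on mature replicate 3.

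Levels of different genes were compared per kilobase of exon. In LPs the order was Ier2 at 262 ± 35.5, Btg1 at 217 ± 55.1, Zfp36l1 at 153 ± 40.4, Ier3 at 105 ± 19.3, Btg2 at 71.9 ± 17.3, Egr1 at 43.3 ± 1.6, Zfp36 at 32.4 ± 6.63, Ier5 at 18.7 ± 6.95, Egr2 at 1.75 ± 1.11 and Egr3 at 1.24 ± 1.04 CPM per kilobase (SD, n = 4). Each gene from Ier2 to Btg2 overlapped its neighbour, as did Zfp36 and Ier5, and Egr2 and Egr3. Egr1 overlapped neither Btg2 above it nor Zfp36 below it.

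In mature cells Btg1 came first, at 368 ± 137 CPM per kilobase, followed by Zfp36l1, Ier3 and Btg2, and Ier2 dropped to the fifth place at 98.9 ± 23.7 CPM per kilobase (SD, n = 4). Those 5 overlapped their neighbours, and none of them overlapped Zfp36 at 35.0 ± 6.53 CPM per kilobase. In each fraction these 5 genes were at percentile 94.5 or above among 12538 tested genes with a length, and in LPs Ier2 reached percentile 98.9. Egr1 made up 93.6 ± 4.23% of the summed level of the 3 EGR genes per kilobase in LPs and 92.2 ± 8.23% in mature cells. Btg1 made up 75.1 ± 3.76% and 74.1 ± 7.69% of the BTG pair, and Zfp36l1 82.3 ± 2.0% and 78.4 ± 7.35% of the ZFP36 pair (SD, n = 4).

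**Figure D4:**
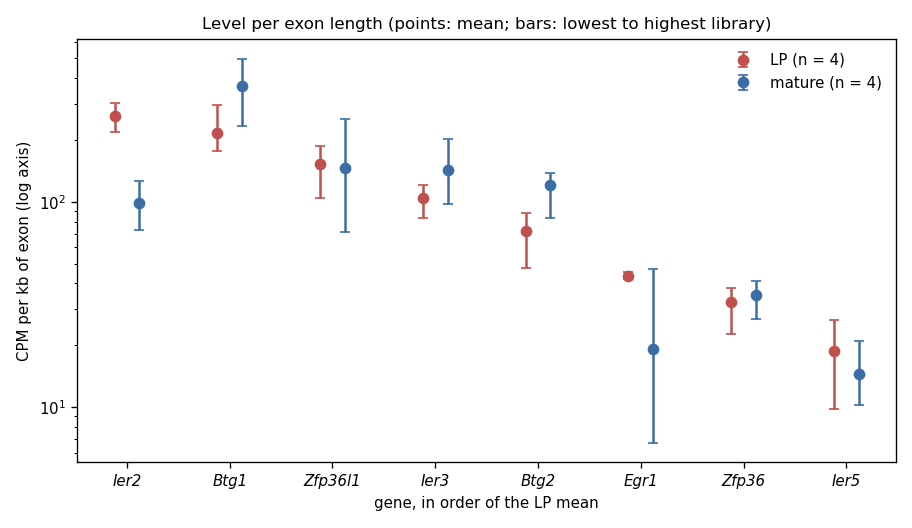
Level per kilobase of exon (vertical log axis) for 8 genes in order of their LP mean. Points are means of 4 libraries and bars run from the lowest to the highest library, LP in red and mature in blue. Ier2 goes from the first place in LPs, 262 CPM per kilobase, to 98.9 in mature cells. Egr2 and Egr3, at 1.75 CPM per kilobase or less, are not drawn.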

How the data were processed

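RNA of 4 LP (c-Kit-high) and 4 mature (c-Kit-low) luminal libraries was measured. According to the submitters' processing notes, the authors used cutadapt 4.2 for trimming and Bowtie2 2.3.5.1 for alignment. The study's methods name the same programs with another Bowtie2 version, and mm10 as the genome. The authors deposited raw whole-number counts per gene, by Entrez Gene ID, without normalization. The counting program, annotation, strand setting and handling of ambiguous reads are not given in the sources used here. The methods name 3 biological replicates, while the table and labels hold 4 per fraction, and all were used.

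Of 24594 IDs, 24570 matched a RefSeq symbol (GRCm38.p6) and 18975 genes had a count. Counts were scaled by TMM and filtered with filterByExpr, which left 12816 genes, and LP was compared with mature by the quasi-likelihood test of edgeR 4.0.16 (limma 3.58.1, R 4.3.3) with Benjamini-Hochberg adjustment. An SE is the absolute log2 fold change divided by the square root of F. DESeq2 1.42.0 was an alternative, as were RLE factors, library totals alone, no filter, a replicate block, each library left out, and, for levels, longest transcript lengths. Tables were made with Python 3.11.15, pandas 2.3.3 and scipy 1.17.1. Libraries of a fraction differed by more than counting noise, the smallest chi-square over its degrees of freedom being 12.04. The test was tested on simulated data first. The pairing of LP and mature libraries comes from a number shared by their names. Their deviations from the fraction means had correlations of 0.157, 0.065, 0.185 and 0.08 within the pairs. The main test has no block, as in the study's methods.

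The genes and lists were chosen with earlier results of these data known. Named are the 10 genes, up to 6 genes per background list past an adjusted p of 0.05 by size of change, Fos, Fosb, Jun, Junb, Atf3, Dusp1, Nr4a1, Srf, Nab1, Nab2, Tob1, Zfp36l2 and Btg3 whatever their values, and the 3 genes most like Egr1 and Ier2. Trib1 and Ier5l were added after their values were seen. Promoter sequences are RefSeq's for GRCm38.p6, and 3′ UTRs are from the GENCODE annotation of the same build.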

Additional observations from a re-analysis of the deposited data

Results flagged for a closer look

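In each of the 10 genes and both fractions, the library farthest from the others was set against Dixon's limit for 4 samples, which chance passes in about 1 of 20 groups, and 20 groups were examined. Egr1 in mature replicate 3, at 210.2 CPM, lay far above the other mature libraries, at 45.3, 29.9 and 58.0 CPM. Egr3 in mature replicate 4, at 0.151 CPM, was apart only because it held 1 count where the other mature libraries held 0.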

How the results depend on the processing

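The number of genes called between the fractions was 3161, and 3027 to 3791 with RLE factors, library totals, DESeq2 or a replicate block, 2917 with no filter and 2338 to 3414 with 1 library left out. With 1 library left out, 2 to 4 of the 10 genes and 17 to 23 genes of the background lists were called. Without mature replicate 3 the log2 fold change of Egr1 rose from 1.17 to 2.15, and without mature replicate 4, which holds the 1 mature count, the fitted value of Egr3 went to 8.15. Btg2 was not called with no filter either, and the cause was not tested. Allowing 1 mismatch raised the genes with a CArG box from 2 to 4 of the 7 with a promoter window. The order of the 10 levels per kilobase in LPs was the same with longest transcript lengths and with library totals alone.

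With the replicate block, 3027 genes, 3 of the 10 (Egr1, Egr3 and Ier2, all higher) and 24 background genes were called. Apart from Egr1, Btg2 and Tob1, given above, the block changed the call of no gene whose call is given. All same-number correlations were positive and each was the highest of its LP library, though none passed 0.185. Correlations between different numbers ran from -0.195 to 0.084. The 0.084 was that of mature replicate 2 with LP replicate 1, above its 0.065 with LP replicate 2. Low counts limit what can be said of Egr2 and Egr3.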
